A study of Mus musculus with 12 samples.

Results

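Phase II enzymes attach a polar group to drugs, toxicants, hormones and bile products so that the conjugate can leave the cell. The 43 mouse genes described here encode 3 classes of such enzymes in hepatocytes and the epoxide hydrolase Ephx1, and they were chosen by symbol from the 35709 genes of the deposited table. They comprise 14 UDP-glucuronosyltransferase (UGT) genes, 8 cytosolic sulfotransferase (SULT) genes and 20 glutathione S-transferase (GST) genes, the last including Gstk1 and the membrane-bound Mgst1, Mgst2 and Mgst3. All 43 were found in the table, and 42 passed the filter on low values (a normalized count of at least 1 in at least 3 of 12 libraries). Sult3a1 did not pass: it was listed at 0 in 10 libraries, at 1.13 in Alb-R3 oil replicate 2 and at 2.40 in Alb-R3 CCl4 replicate 3.

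RNA-seq was done on primary hepatocytes of C57BL/6J males of 8 to 10 weeks, freed by Liberase perfusion and enriched by differential centrifugation and a Percoll gradient. All mice carried Cre recombinase driven by the albumin promoter, which is active in hepatocytes; Alb-Cre mice were the controls, and in Alb-R3 mice the growth factor receptor gene Fgfr3 is described as deleted in hepatocytes. Each genotype received olive oil or carbon tetrachloride (CCl4) in olive oil, 0.4 mg per g body weight by intraperitoneal injection, and the time given is 48 h. There were 3 samples in each of the 4 groups (oil or CCl4 in Alb-Cre, oil or CCl4 in Alb-R3), numbered 1 to 3. Nothing in the labels ties each number to its own mouse, so p-values here measure only how far these samples spread, some of which may be technical. In such bulk samples, fewer cells of a type and less RNA per cell cannot be told apart.

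UGT enzymes sit in the endoplasmic reticulum and transfer a sugar, mostly glucuronic acid from UDP-glucuronic acid. SULT enzymes are cytosolic and transfer sulfate from the donor PAPS. GST enzymes couple glutathione to electrophiles, and the cytosolic ones form lettered families (Alpha, Mu, Pi, Theta, Omega, Zeta). CCl4 is turned into a radical by the cytochrome P450 Cyp2e1, which is most abundant in the hepatocytes around the central vein, and those cells are the ones that die.

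The start regions of 5 genes named in the CCl4 results are shown, and no link between these regions and the changes was tested. Gstm5 and Ugt2b37 were the 2 members called higher after CCl4 in Alb-R3, Ugt1a1 and Ugt3a1 were called lower, and Gstm3 differed most between CCl4 libraries. Each line gives the 250 bases before the RefSeq start site, 5′ to 3′ on the gene's strand (build GRCm38.p6), and capitals mark the motifs found by the search described next.
Gstm5, chr3:107895604-107895853, + strand: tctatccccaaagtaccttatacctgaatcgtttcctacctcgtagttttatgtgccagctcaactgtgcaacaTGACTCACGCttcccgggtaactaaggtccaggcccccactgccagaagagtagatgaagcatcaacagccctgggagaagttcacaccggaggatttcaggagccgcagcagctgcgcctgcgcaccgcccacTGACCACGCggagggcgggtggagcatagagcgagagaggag
Gstm3, chr3:107969175-107969424, - strand: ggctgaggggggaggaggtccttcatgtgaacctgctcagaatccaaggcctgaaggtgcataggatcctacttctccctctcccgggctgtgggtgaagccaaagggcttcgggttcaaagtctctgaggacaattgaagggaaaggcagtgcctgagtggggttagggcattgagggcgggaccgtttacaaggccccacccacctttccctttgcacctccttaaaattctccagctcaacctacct
Ugt2b37, chr5:87254789-87255038, - strand: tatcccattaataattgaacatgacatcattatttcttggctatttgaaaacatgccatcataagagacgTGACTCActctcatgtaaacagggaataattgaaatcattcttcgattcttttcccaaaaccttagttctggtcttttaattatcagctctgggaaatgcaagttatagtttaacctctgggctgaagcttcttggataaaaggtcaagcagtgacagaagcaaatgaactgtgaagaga
Ugt1a1, chr1:88211709-88211958, + strand: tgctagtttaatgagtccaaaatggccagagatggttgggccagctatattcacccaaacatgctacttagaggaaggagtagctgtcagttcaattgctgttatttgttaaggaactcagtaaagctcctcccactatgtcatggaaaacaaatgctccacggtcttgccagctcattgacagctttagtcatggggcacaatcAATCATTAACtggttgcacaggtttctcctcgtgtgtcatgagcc
Ugt3a1, chr15:9279579-9279828, + strand: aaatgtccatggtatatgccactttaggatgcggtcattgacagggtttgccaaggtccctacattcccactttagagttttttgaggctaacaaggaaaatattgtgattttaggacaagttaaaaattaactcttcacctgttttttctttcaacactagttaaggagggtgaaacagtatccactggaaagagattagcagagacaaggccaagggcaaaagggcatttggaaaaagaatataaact

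RefSeq windows were matched for 39 of the 43 members (not for Gstt2, Ugt1a6b, Ugt3a2 and Gsta4), and 4 motifs were searched on both strands. TGACNNNGC, the core of the antioxidant response element, was found in 4 members (Gsta3, Gstm5, Gstm7 and Mgst1), and in 10.2% of all 32851 windows. All 4 are GST genes, as are 18 of the 39 matched members. TGACTCA, the AP-1 motif, was found in Gstm5, Gstp1, Mgst2 and Ugt2b37, and in 4.46% of all windows. The HNF1 motif was found in Ugt1a1, Ugt1a9 and Sult1d1, and in 0.371% of all windows. GCGTG, the core of the xenobiotic response element, was found in 7 members and in 28.2% of all windows, and in Gstm5 it lies on the reverse strand inside both capital runs, where it overlaps TGACTCA in the first and TGACNNNGC in the second. The windows of Gstm3 and Ugt3a1 held none of the 4. Members are counted here by gene, and some have more than 1 window. Of the 49 windows of members, 4 held TGACNNNGC, 4 TGACTCA, 3 the HNF1 motif and 8 GCGTG. A match of letters is a description of the window and shows no binding.

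The libraries held an estimated 28020000 to 39630000 reads, so counting noise matters only for the lowest members. Albumin took 4.54% to 8.58% of the normalized counts in 11 libraries, and the hepatocyte marker list (Alb, Ttr, Apoa1 and 5 others) took 5.28% to 11.4% in all 12. The library Alb-R3 CCl4 replicate 1 stood apart: mitochondrially encoded genes made up 32.3% of it, where the other 11 held 6.22% to 12.8%, and albumin took 3.19%. CCl4 results are therefore given with and without that library. Fgfr3 itself had normalized counts of 734.9, 887.6 and 988.1 in Alb-Cre oil, 523.1, 650.5 and 1109 in Alb-R3 oil, 950.9, 705.7 and 753 in Alb-Cre CCl4, and 477.7, 372.1 and 382.3 in Alb-R3 CCl4. The library labelled Alb-R3 oil replicate 3 thus had the highest Fgfr3 value of all, and the deleted exons are not given in the sources used here.

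The 3 classes differed widely in level. On the FPKM scale, which divides by gene length and allows levels of different genes to be compared, the mean over the 12 libraries summed to 11620 for the 20 GST genes, 1848 for the 14 UGT genes and 631 for the 8 SULT genes. A few genes carried each class. In the GST class, Gstp1 (Pi family, FPKM 3267), the membrane-bound Mgst1 (2972) and Gstm1 (Mu family, 2527) made up 75.4% of the summed FPKM. In the SULT class, Sult2a8, a bile acid sulfotransferase (353), Sult1a1, which sulfates phenols (201), and Sult1d1, which acts on catecholamines (50), made up 95.8%. In the UGT class, Ugt2b36 (532), Ugt2b5 (401), both of the subfamily that conjugates steroids and other lipids, and Ugt1a1, the bilirubin enzyme (197), made up 61.1%. At the other end, Sult1e1, the estrogen sulfotransferase, and Mgst2, a leukotriene C4 synthase, had mean FPKM of 0.0895 and 0.0646.

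**Figure D1:**
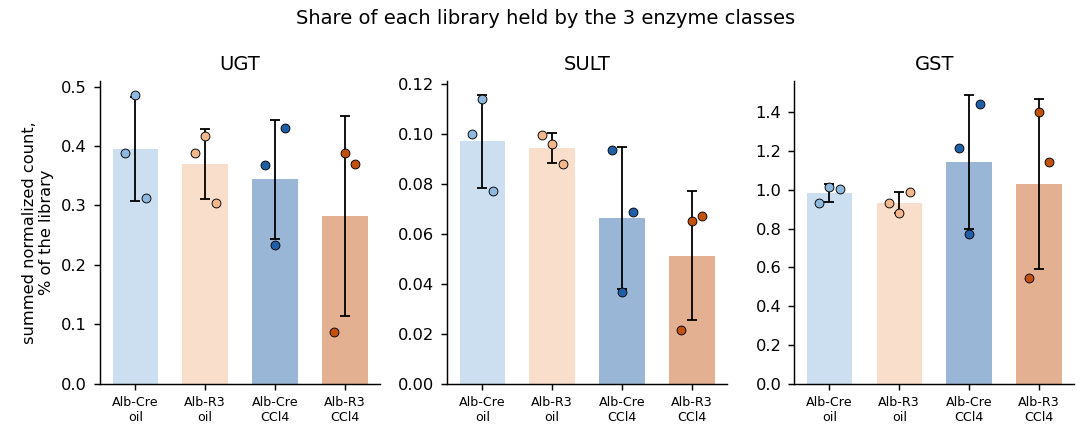
Summed normalized count of each class as a percentage of the library total (y axes start at 0); bars are group means, error bars are the SD of 3 libraries, and points are libraries in the order of replicates 1 to 3. The SULT mean was lower after CCl4 in both genotypes (0.0969% to 0.0663% in Alb-Cre), and the lowest point of each class is Alb-R3 CCl4 replicate 1.

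As a share of the library, the UGT genes took 0.395% ± 0.087 (SD, n = 3) in Alb-Cre oil and 0.344% ± 0.1 in Alb-Cre CCl4, and 0.370% ± 0.058 in Alb-R3 oil and 0.282% ± 0.169 in Alb-R3 CCl4. For the SULT genes the Alb-Cre shares were 0.0969% ± 0.0184 after oil and 0.0663% ± 0.0285 after CCl4, and the Alb-R3 shares 0.0944% ± 0.0060 and 0.0513% ± 0.0257. For the GST genes they were 0.984% ± 0.046 after oil and 1.14% ± 0.34 after CCl4 (Alb-Cre), and 0.935% ± 0.055 and 1.03% ± 0.44 (Alb-R3). With all libraries, the SULT total was the one class total that did not overlap in Alb-R3, with 0.0878% to 0.0996% after oil and 0.0216% to 0.0671% after CCl4. In Alb-Cre it overlapped, because Alb-Cre CCl4 replicate 1 held 0.0935% and Alb-Cre oil replicate 3 held 0.0772%. Alb-R3 CCl4 replicate 1 held 0.0876% for UGT and 0.543% for GST. Replicates 2 and 3 of that group held 0.388% and 0.371% for UGT, inside the Alb-R3 oil range of 0.305% to 0.417%. For GST they held 1.40% and 1.15%, above the Alb-R3 oil range of 0.881% to 0.991%. The spread of all 3 classes was larger after CCl4 than after oil, most of all for the GST genes, whose CCl4 libraries ran from 0.543% to 1.45%.

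CCl4 was compared with oil within each genotype, on log2(normalized count + 1) with limma over 20244 genes and Benjamini-Hochberg adjustment at 0.05. In Alb-Cre, 3 of the 42 tested members passed, all lower: Sult1c2, Gstk1 and Gsto1. Among all tested genes 4.45% passed in either direction and 0.988% passed lower. In Alb-R3, 15 members passed, 13 lower and 2 higher, against 17.8% of all tested genes in either direction, 6.92% lower and 10.9% higher. By class, 0 of 14 UGT genes (1 at an unadjusted p under 0.05), 1 of 7 SULT genes and 2 of 20 GST genes passed in Alb-Cre, and 4 of 14, 4 of 7 and 7 of 20 passed in Alb-R3. These are counts within each genotype, and no difference between the genotypes passed, as given further on. Gsto1, Gstk1 and Sult1c2 were lower in both genotypes.

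**Figure D2:**
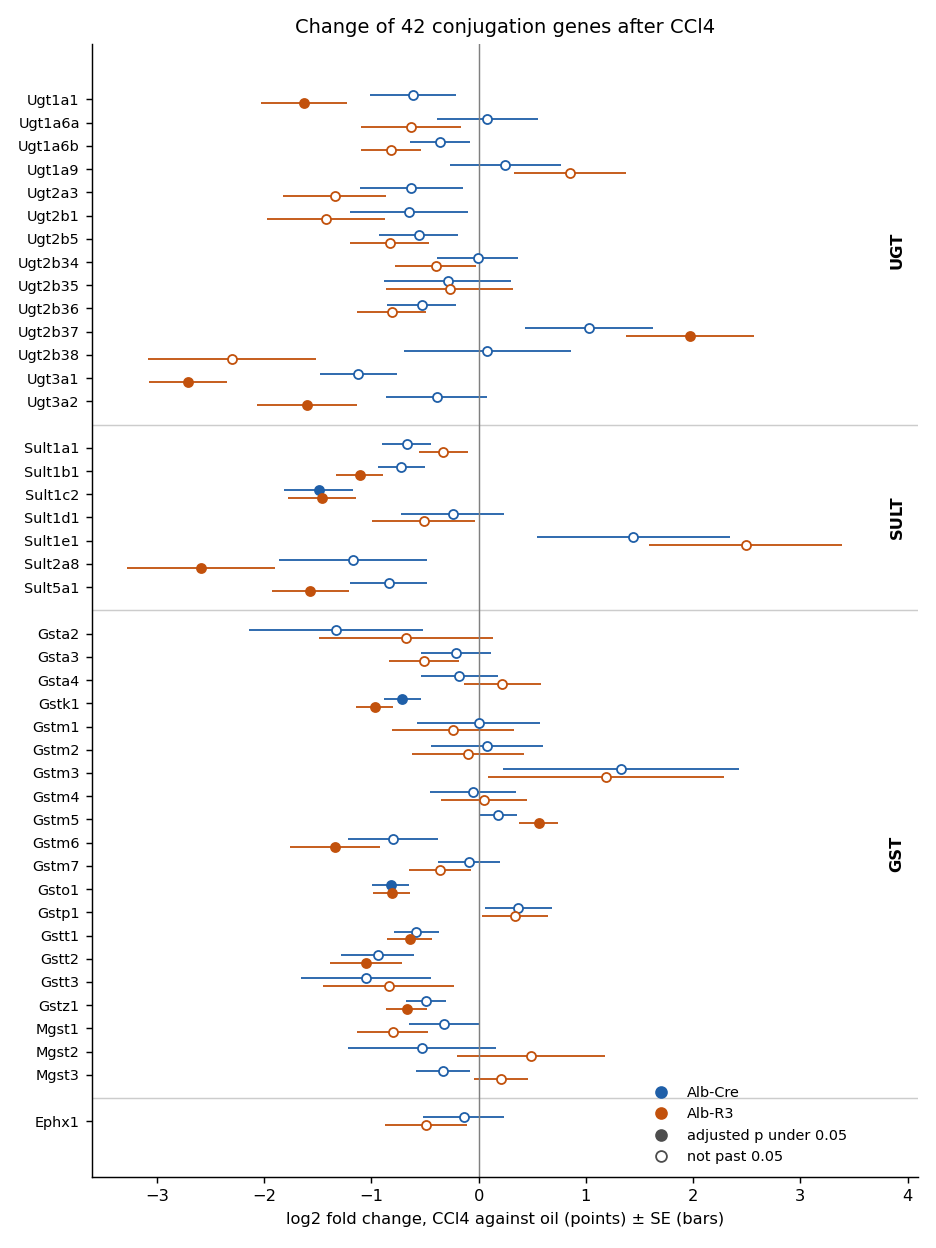
Log2 fold change of CCl4 against oil for the 42 tested members (x axis; points with limma standard errors), by class, in Alb-Cre (blue) and Alb-R3 (orange); filled points passed an adjusted p of 0.05. Most points lie left of 0, and the calls in Alb-R3 are 13 lower and 2 higher.

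The median log2 fold change in Alb-Cre was -0.38 for the UGT genes, -0.72 for the SULT genes and -0.33 for the GST genes, and 0.02 for all tested genes. In Alb-R3 the medians were -0.83, -1.11 and -0.43, and 0.00 for all tested genes. Values below 0 in both genotypes were found for 29 of 42 members and 34.5% of all tested genes, above 0 in both for 6, and of opposite sign for 7. In Alb-Cre, the 3 CCl4 values lay below the 3 oil values for 15 members (10.4% of all tested genes) and above them for 2 (13.3%). In Alb-R3 they lay below for 20 members (15.5%) and above for 1 (18.1%). With Alb-R3 CCl4 replicate 1 left out, the remaining 2 values lay below for 20 members (22.2%) and above for 12 (25.1%), of which 4 were UGT and 8 GST genes.

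Without Alb-R3 CCl4 replicate 1, the medians in Alb-R3 became -0.37 for UGT, -0.80 for SULT and 0.19 for GST, so that the GST median changed sign. The members called in Alb-R3 were then 13, of which 10 were lower and 3 higher, beside 15.7% of all tested genes, 6.05% lower and 9.63% higher. In Alb-Cre, where that library enters only through the shared estimate of spread, 5 were called, all lower (6.88% of all tested genes in either direction and 2.13% lower), the additions being Ugt3a1 and Sult1b1. Other single libraries moved the counts as well. For Alb-Cre, 0 members were called when its CCl4 replicate 2 was left out and 1 when its CCl4 replicate 3 was. For Alb-R3, 6 were called when its oil replicate 2 was left out, 8 for oil replicate 1 and 9 for the library labelled oil replicate 3. Shares of all tested genes called in these fits are not given here, so such drops need not be particular to the members. Of the 15 calls in Alb-R3, 6 were kept whichever of the 12 libraries was left out: Ugt3a1, Sult1b1, Sult1c2, Sult5a1, Gstk1 and Gsto1, all of them lower. Of the 3 calls in Alb-Cre, 0 were kept in every such fit.

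The scale mattered too. On the deposited FPKM columns the median of all tested genes was 0.15 in Alb-Cre and 0.17 in Alb-R3, where it was 0.02 and 0.00 on normalized counts. Class medians on FPKM were -0.15 for UGT, -0.48 for SULT and -0.10 for GST in Alb-Cre; for Alb-R3 they were -0.56, -0.83 and -0.17. With limma, 0 members passed in Alb-Cre and 5 in Alb-R3 on that scale: Ugt3a1, Sult5a1 and Gstk1 lower, and Ugt2b37 and Gstm5 higher, a split of 2 higher to 3 lower beside 2 to 13 on normalized counts. With only the 6 Alb-R3 libraries in the fit, 6 passed, all lower: Ugt3a1, Sult1b1, Sult5a1, Gstk1, Gsto1 and Gstt2. For the FPKM fit and this one, the share of all tested genes called is not given.

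Among the UGT genes, the largest fall was that of Ugt3a1 (ENSMUSG00000072664, chromosome 15, 9276888 to 9315032), whose subfamily uses sugars other than glucuronic acid. Its normalized counts were 3640, 3801 and 2793 in Alb-R3 oil and 246.1, 802.1 and 691.4 in Alb-R3 CCl4. In Alb-Cre they were 3426, 3503 and 2331 after oil and 1510, 1030 and 1753 after CCl4. The CCl4 values lay below the oil values in both genotypes, and the 3 Alb-R3 CCl4 values were the lowest of the 12. The log2 fold change was -2.71 ± 0.36 (SE) in Alb-R3 (limma adjusted p = 0.00028), a fold of 6.55, and -2.18 ± 0.24 without Alb-R3 CCl4 replicate 1 (4.96e-05). In Alb-Cre it was -1.12 ± 0.36 (adjusted p = 0.116), and 0.00592 without Alb-R3 CCl4 replicate 1. Its neighbour Ugt3a2 (chromosome 15, 9335550 to 9370955) stood at 12450, 12980 and 8072 in Alb-R3 oil and 1255, 6121 and 6062 in Alb-R3 CCl4, without overlap, and fell, by a fold of 3.04 (adjusted p = 0.0332; a fold of 1.79 and 0.0313 without Alb-R3 CCl4 replicate 1). That call was lost without Alb-R3 oil replicate 1 or 2 (0.106 to 0.107). Ugt3a1 shares 16.5% of its 31-base sequences with Ugt3a2.

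Ugt1a1 (chromosome 1, 88211959 to 88218997) fell in Alb-R3. Its normalized counts were 19450, 21630 and 16470 after oil and 2610, 9535 and 9341 after CCl4, and in Alb-Cre 20010, 19840 and 17890 after oil and 13740, 9555 and 15070 after CCl4. All 6 CCl4 libraries lay below all 6 oil libraries. The log2 fold change was -1.63 ± 0.40 in Alb-R3 (limma adjusted p = 0.0128) and -0.61 ± 0.40 in Alb-Cre (0.485). The first was -1.01 ± 0.21 (0.00634) when Alb-R3 CCl4 replicate 1 was left out, and the call was lost by a small margin when Alb-R3 oil replicate 2 was (-1.54, 0.0503). The Ugt1a genes are alternative first exons spliced to common ones: 4 of the 5 coding exons of Ugt1a1, Ugt1a6a, Ugt1a6b and Ugt1a9 are the same, at chromosome 1, 88215044 to 88218421. The share of 31-base sequences held in common with other genes was 58.5% for Ugt1a1, 53% for Ugt1a6a, 84.2% for Ugt1a6b and 67.8% for Ugt1a9, so the split of reads between these 4 is uncertain.

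The other Ugt1a members were not called with all 12 libraries. Ugt1a9 had 1319, 1843 and 839 in Alb-R3 oil and 902, 2903 and 4573 in Alb-R3 CCl4, with overlap, and a log2 fold change of 0.85 ± 0.52 (limma adjusted p = 0.294). Without Alb-R3 CCl4 replicate 1 the remaining 2 CCl4 values were above the oil values and the change passed (1.52 ± 0.40, 0.022). Ugt1a6b, a small-phenol enzyme, read 4944, 5183 and 4427 after oil and 3891, 3454 and 3968 after CCl4 in Alb-Cre (-0.36 ± 0.28), and 5482, 5396 and 4484 against 1553, 4141 and 3725 in Alb-R3. All 6 of its CCl4 values lay below all 6 oil values. It passed in Alb-R3 when CCl4 replicate 2 or 3 of that genotype was left out (0.0226 to 0.0468), with -0.82 ± 0.28 and adjusted p = 0.0633 in all 12 libraries. Ugt1a6a was not called in either genotype (0.08 ± 0.47 in Alb-Cre and -0.63 ± 0.47 in Alb-R3).

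Ugt2b37 was the UGT gene that rose, from a low level. Its normalized counts were 38.29, 16.19 and 18.17 in Alb-R3 oil and 29.28, 149.3 and 168.9 in Alb-R3 CCl4, and in Alb-Cre 45.95, 39.77 and 20.33 after oil and 91.94, 47.1 and 76.04 after CCl4. Alb-R3 CCl4 replicate 1 lay inside the range of the oil libraries, and the other 5 CCl4 libraries were above all 6 oil libraries. The log2 fold change in Alb-R3 was 1.97 ± 0.60 (limma adjusted p = 0.0387), and 2.77 ± 0.45 without Alb-R3 CCl4 replicate 1 (0.00123); in Alb-Cre it was 1.03 ± 0.60 (0.436). Leaving out any of 7 libraries ended the call (0.0501 to 0.135); the other 5, without which it held, were Alb-Cre oil replicates 2 and 3, Alb-R3 oil replicate 1, Alb-Cre CCl4 replicate 2 and Alb-R3 CCl4 replicate 1. Of its 31-base sequences 34.4% occur in other genes, with 25.9% in the far more abundant Ugt2b5, so its level is uncertain.

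The abundant UGT genes of the Ugt2 family were not called. Ugt2b36 had 22250, 23100 and 20560 in Alb-R3 oil and 6733, 18290 and 15780 in Alb-R3 CCl4, with -0.81 ± 0.32 (limma adjusted p = 0.101), and 23080, 26600 and 19790 against 16680, 12640 and 19160 in Alb-Cre, with -0.53 ± 0.32 (0.455). The CCl4 values lay below the oil values in both genotypes. Ugt2b5 had 26850, 29930 and 25220 against 7686, 25220 and 18470 in Alb-R3 (-0.83 ± 0.37, 0.147), and 30040, 39070 and 26280 against 21260, 16090 and 28380 in Alb-Cre (-0.56 ± 0.37, 0.509). Ugt2b36, Ugt2b5, Ugt2b1 and Ugt2a3 passed in Alb-R3 when Alb-R3 CCl4 replicate 2 was left out (adjusted p = 0.0221 to 0.0431), and Ugt2b38 when that library or replicate 2 or 3 of Alb-Cre oil was (0.0259 to 0.0327). Of the 31-base sequences of Ugt2b5, 56.4% occur in other genes, as do 52.9% of those of Ugt2b38. Ugt2b34 and Ugt2b35 had -0.40 ± 0.38 and -0.27 ± 0.59 in Alb-R3. Ugt2b35 read 6652, 7617 and 6000 after oil and 1508, 10820 and 10580 after CCl4, so Alb-R3 CCl4 replicate 1 was below all oil values and the other 2 were above them.

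Of the 7 tested SULT genes 4 passed in Alb-R3, all lower, beside 6.92% of all tested genes called lower, and on FPKM 1 of the 7 passed (Sult5a1). Sult1c2 (chromosome 17, 53829637 to 53846339) passed in both genotypes. Its normalized counts were 181.6, 249.9 and 194.5 in Alb-Cre oil and 87.5, 60.62 and 73.14 in Alb-Cre CCl4, and 212.3, 194.9 and 189.2 in Alb-R3 oil and 39.2, 85.7 and 109 in Alb-R3 CCl4. All 6 CCl4 values were below all 6 oil values. The log2 fold change was -1.49 ± 0.32 in Alb-Cre (limma adjusted p = 0.0173) and -1.46 ± 0.32 in Alb-R3 (0.00788). In Alb-Cre this call did not survive leaving out oil replicate 2, CCl4 replicate 2 or CCl4 replicate 3 of that genotype (0.0581 to 0.0864).

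Sult2a8 (chromosome 7, 14410686 to 14446769), the most abundant SULT gene, fell in Alb-R3 from 22530, 21780 and 20950 to 886.2, 9019 and 5928. In Alb-Cre it read 22140, 25820 and 15210 after oil and 15260, 3895 and 12860 after CCl4. The Alb-R3 groups were far apart, while those of Alb-Cre overlapped through Alb-Cre CCl4 replicate 1, which was just above the lowest oil value. The log2 fold change was -2.59 ± 0.69 in Alb-R3 (limma adjusted p = 0.0208), and -1.57 ± 0.45 without Alb-R3 CCl4 replicate 1 (0.0314), which is a fold of 2.97 against 6.01. The call was lost without any 1 of the 3 libraries labelled Alb-R3 oil (0.0526 to 0.0654). In Alb-Cre the change was -1.17 ± 0.69 (0.44).

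Sult5a1 and Sult1b1, which acts on thyroid hormones and phenols, were also lower in Alb-R3. Sult5a1 went from 715.9, 777.3 and 1435 to 343.1, 321.2 and 277.2, a log2 fold change of -1.57 ± 0.36 (limma adjusted p = 0.00949), and Alb-R3 CCl4 replicate 1 was the highest of the 3 CCl4 values here. Sult1b1 went from 771.5, 819.4 and 838.5 to 245.5, 435.1 and 495.3, or -1.11 ± 0.22 (0.00408). When Alb-R3 CCl4 replicate 1 was left out, Sult5a1 changed by -1.63 ± 0.40 (0.0143) and Sult1b1 by -0.80 ± 0.15 (0.00302). In Alb-Cre, Sult1b1 went from 914.4, 896.4 and 763.7 to 552.2, 477 and 531.9 without overlap, which passed when Alb-R3 CCl4 replicate 1 was left out of the fit (-0.72 ± 0.13, 0.00486) and not with all 12 libraries (-0.72 ± 0.22, 0.0908). Sult5a1 read 793.7, 857.6 and 703.4 after oil and 713.5, 529 and 220.4 after CCl4 in Alb-Cre, with overlap (-0.84 ± 0.36, 0.245).

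Of the other SULT genes, Sult1a1 had 8947, 8423 and 8173 in Alb-Cre oil and 7902, 5138 and 3798 in Alb-Cre CCl4, without overlap. Its log2 fold change of -0.67 ± 0.23 did not pass (limma adjusted p = 0.143), and passed without Alb-Cre CCl4 replicate 1 (-0.95, 0.023). In Alb-R3 it read 8138, 8197 and 8501 after oil and 5559, 6604 and 7853 after CCl4 (-0.33 ± 0.23, 0.373). Sult1d1 did not separate in either genotype: 2791, 2466 and 2178 after oil and 593.2, 2410 and 3590 after CCl4 in Alb-R3 (-0.51 ± 0.48, 0.506), and 2404, 3201 and 2340 against 2806, 1669 and 2340 in Alb-Cre (-0.24 ± 0.48, 0.861). Sult1e1 was near the floor of detection, with 0 to 1.18 in the oil libraries, 4.86, 5.72 and 0 in Alb-Cre CCl4 and 18.6, 0.733 and 10.4 in Alb-R3 CCl4, and was called in neither genotype (1.44 ± 0.90 and 2.49 ± 0.90). Without Alb-R3 CCl4 replicate 2 it passed in Alb-R3 (3.53, 0.0118).

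**Figure D3:**
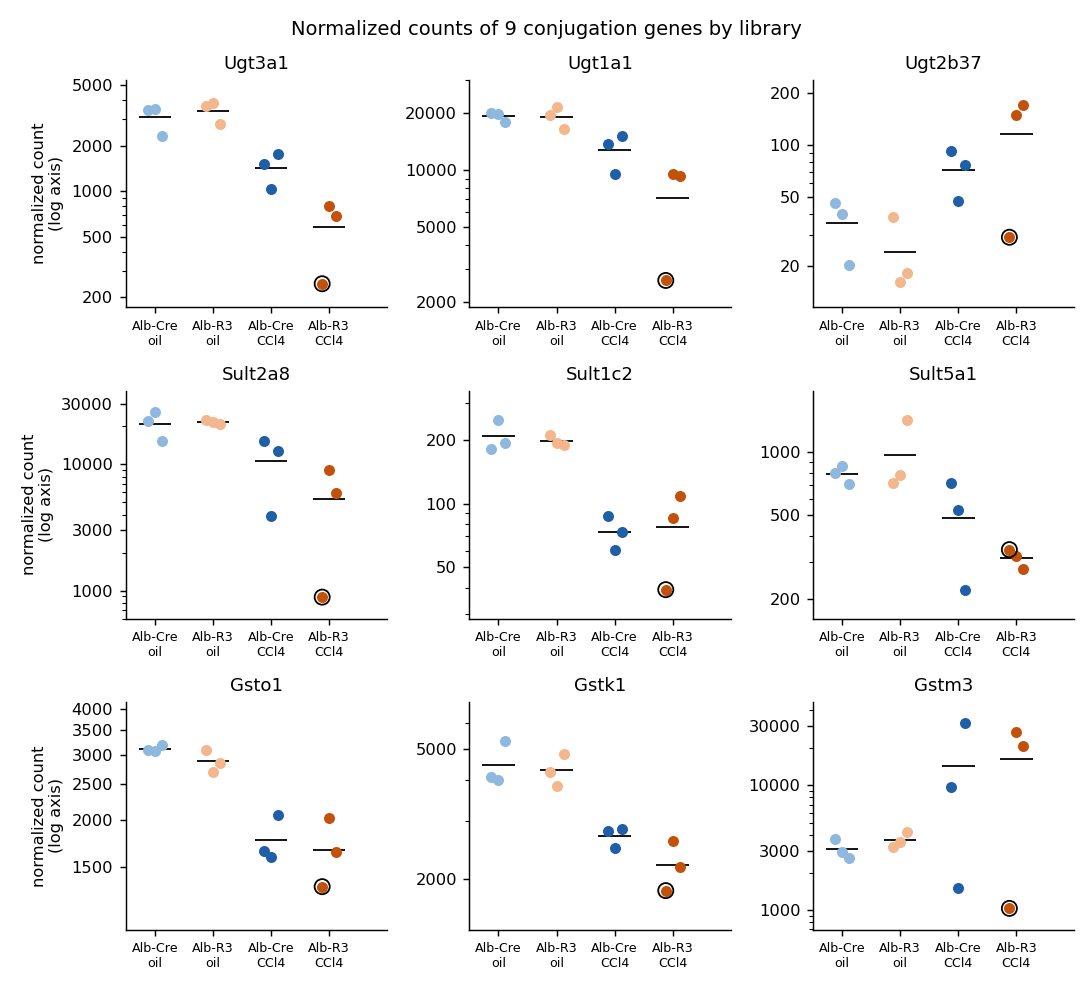
Normalized counts (y axes, log scale) of 9 members in the 12 libraries; points are libraries in the order of replicates 1 to 3, horizontal lines are group means, and the ringed point is Alb-R3 CCl4 replicate 1. Gsto1, Gstk1, Sult1c2 and Ugt3a1 lie lower after CCl4 in both genotypes without overlap, and the CCl4 libraries of Gstm3 split into high and low ones.

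Among the GST genes, Gsto1 (Omega family, a thiol transferase and dehydroascorbate reductase) and Gstk1 (Kappa family, found in mitochondria and peroxisomes) fell by similar amounts in both genotypes. Gsto1 (chromosome 19, 47854970 to 47864790) had normalized counts of 3085, 3080 and 3190 in Alb-Cre oil and 1653, 1598 and 2069 in Alb-Cre CCl4, and 3087, 2706 and 2860 in Alb-R3 oil and 1326, 2029 and 1644 in Alb-R3 CCl4. Gstk1 (chromosome 6, 42245935 to 42250447) had 4100, 4005 and 5275 against 2805, 2480 and 2843 in Alb-Cre, and 4229, 3834 and 4826 against 1839, 2618 and 2168 in Alb-R3. For both genes all 6 CCl4 values were below all 6 oil values. Gsto1 changed by -0.82 ± 0.17 in Alb-Cre (limma adjusted p = 0.0116) and -0.81 ± 0.17 in Alb-R3 (0.00533), and Gstk1 by -0.71 ± 0.17 (0.0326) and -0.97 ± 0.17 (0.00214). In Alb-Cre, the Gsto1 call was lost without CCl4 replicate 1 or 2 of that genotype (0.052 to 0.0641). The Gstk1 call there was lost without any 1 of the 6 Alb-Cre libraries or Alb-R3 oil replicate 1 (0.0505 to 0.142). Gstk1 was also not called in Alb-Cre when the 6 Alb-R3 libraries were left out of the fit (0.0622). The changes in Alb-R3 without its CCl4 replicate 1 were -0.66 ± 0.16 (0.0121) and -0.84 ± 0.17 (0.00481).

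Gstz1, which isomerizes maleylacetoacetate in tyrosine breakdown, and the Theta enzymes Gstt1 and Gstt2, which act on small halogenated compounds, were lower in Alb-R3. Gstz1 went from 26890, 25230 and 26120 to 14400, 17660 and 17460, a log2 fold change of -0.67 ± 0.19 (limma adjusted p = 0.0266), and in Alb-Cre from 27330, 27610 and 25330 to 20350, 18980 and 17980 (-0.49 ± 0.19, 0.191). The groups did not overlap in either genotype, and the call was lost without any 1 of the 3 libraries labelled Alb-R3 oil (0.0669 to 0.095). Gstt1 went from 11080, 9639 and 11740 to 5249, 8398 and 7512 (-0.64 ± 0.21, 0.0469), and Gstt2 from 3144, 2623 and 3776 to 1290, 1485 and 1824 (-1.05 ± 0.34, 0.0464). Neither passed without Alb-R3 CCl4 replicate 1 (-0.44 ± 0.18, 0.123, and -0.93 ± 0.37, 0.107). The size of these falls depended on the scaling. In Alb-R3, quantile normalization gave -0.20 for Gstz1 (limma adjusted p = 0.461), -0.28 for Gstt1 (0.309) and -0.85 for Gstt2 (0.106). On FPKM the changes were -0.40 (0.202), -0.37 (0.37) and -0.78 (0.19) in that order. The Gstt1 call held without Alb-Cre oil replicate 3, Alb-Cre CCl4 replicate 2 or Alb-R3 CCl4 replicate 2 and was lost without any of the other 9 (0.0562 to 0.131). The Gstt2 call held without replicates 2 and 3 of Alb-Cre oil or of Alb-Cre CCl4, each left out alone, and was lost without any of the other 8 (0.0558 to 0.139). In Alb-Cre, Gstt1 changed by -0.58 ± 0.21 (0.154) and Gstt2 by -0.94 ± 0.34 (0.16), the latter called without Alb-Cre oil replicate 2 (-1.33, 0.0303).

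The 3 most abundant GST genes were not called in either genotype. Gstp1 had 53540, 63230 and 63130 in Alb-Cre oil and 80620, 72240 and 78860 in Alb-Cre CCl4, without overlap, and a log2 fold change of 0.37 ± 0.31 (limma adjusted p = 0.633). In Alb-R3 it read 49140, 48370 and 78070 against 79510, 88430 and 53800, with overlap (0.34 ± 0.31, 0.503). Gstp1 shares 38.5% of its 31-base sequences with Gstp2. Mgst1 read 86960, 78190 and 100400 against 37370, 61980 and 55340 in Alb-R3, without overlap (-0.80 ± 0.33, 0.111), and 82520, 101400 and 93900 against 86920, 54560 and 84670 in Alb-Cre (-0.32 ± 0.33, 0.7). The Alpha genes were not called either. Gsta2 read 1732, 2549 and 1750 against 1390, 204.4 and 1697 in Alb-Cre, where replicate 2 was far below the other 2 (-1.33 ± 0.81, 0.454), and 60.7% of its 31-base sequences occur in other genes. Gsta3 and Gsta4, which conjugates the lipid aldehyde 4-hydroxynonenal, had log2 fold changes of -0.21 ± 0.33 and -0.18 ± 0.36 (Alb-Cre) and of -0.51 ± 0.33 and 0.22 ± 0.36 (Alb-R3).

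Gstt3, Mgst2, Mgst3 and Ephx1 were uncalled too. Gstt3 had -1.05 ± 0.61 in Alb-Cre and -0.84 ± 0.61 in Alb-R3, Mgst3 had -0.33 ± 0.25 and 0.21 ± 0.25, and Mgst2, at 0 to 4.77 in all libraries, had -0.53 ± 0.69 and 0.49 ± 0.69. Ephx1, the microsomal epoxide hydrolase, read 15770, 16320 and 18580 in Alb-Cre oil and 13020, 11710 and 23670 in Alb-Cre CCl4 (-0.14 ± 0.38, limma adjusted p = 0.912). In Alb-R3 it read 16980, 17650 and 15310 against 5788, 19540 and 14670 (-0.49 ± 0.38, 0.417), and 0.03 ± 0.27 without Alb-R3 CCl4 replicate 1. The CCl4 values straddled the oil values in both genotypes.

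The 7 Mu genes lie next to each other on chromosome 3, from Gstm5 (107895821 to 107898686) to Gstm4 (108040408 to 108044894), and they did not change alike. Gstm5 rose a little in Alb-R3, from 330.5, 269.7 and 405.6 to 502.4, 529.6 and 438.4, without overlap (0.56 ± 0.18, limma adjusted p = 0.0456). In Alb-Cre it read 383.2, 326.7 and 430.8 against 439.5, 438.1 and 407.3 (0.18 ± 0.18, 0.692). Its call was lost without Alb-R3 CCl4 replicate 1 (0.54 ± 0.20, 0.0818) and without 8 other libraries (0.0524 to 0.181 over the 9), and held without replicate 2 or 3 of Alb-Cre oil or the library labelled Alb-R3 oil replicate 3. Gstm6 (107938847 to 107943749) fell in Alb-R3, from 4043, 3773 and 4487 to 771.7, 3047 and 1791, without overlap (-1.34 ± 0.42, 0.0418). In Alb-Cre it read 4138, 4252 and 3121 against 2784, 1236 and 3028, also without overlap (-0.80 ± 0.42, 0.367). Its Alb-R3 change was -0.81 ± 0.33 (0.12) without Alb-R3 CCl4 replicate 1, and over the 8 libraries whose loss ended the call the adjusted p ran from 0.0514 to 0.12. The 4 without which it held were Alb-Cre oil replicate 3, Alb-Cre CCl4 replicates 2 and 3, and Alb-R3 CCl4 replicate 2.

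Gstm3 (107963696 to 107969283), the next of the 7 after Gstm6, differed widely among CCl4 libraries of the same genotype. Its normalized counts were 3744, 2918 and 2616 in Alb-Cre oil and 3218, 3509 and 4251 in Alb-R3 oil. After CCl4, Alb-Cre held 9652, 1515 and 31290 while Alb-R3 held 1033, 26790 and 20460. Thus 4 of the 6 CCl4 libraries were above all oil libraries, and Alb-Cre CCl4 replicate 2 and Alb-R3 CCl4 replicate 1 were below all of them. With that spread, 1.33 ± 1.10 in Alb-Cre (limma adjusted p = 0.616) and 1.19 ± 1.10 in Alb-R3 (0.507) did not pass. Without Alb-R3 CCl4 replicate 1 the change in Alb-R3 was 2.69 ± 0.81 and passed (0.0397), while that in Alb-Cre stayed at 1.33 ± 0.73 (0.331). Of the 31-base sequences of Gstm3, 37.7% occur in other genes, 24.7% in the gene model Gm8834 and 15.2% in Gstm1.

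**Figure D4:**
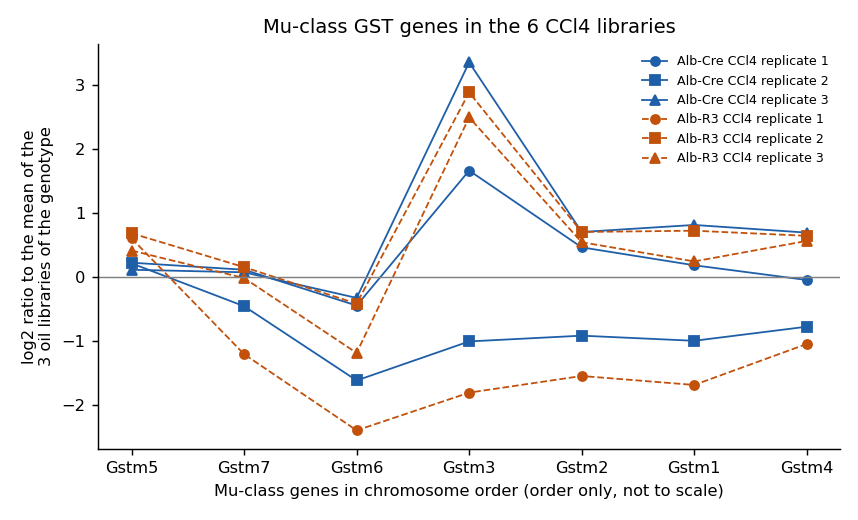
Log2 ratio of each CCl4 library to the mean of the 3 oil libraries of its genotype (y axis) for the 7 Mu genes in chromosome order (x axis, order only); lines join the values of a library. Alb-Cre CCl4 replicate 2 and Alb-R3 CCl4 replicate 1 run below the other 4 libraries for every gene but Gstm5.

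The neighbours of Gstm3 showed a smaller form of this split. Gstm1 read 67210, 63510 and 75910 against 78070, 34300 and 120600 in Alb-Cre, and 65230, 69910 and 77160 against 21870, 116200 and 83230 in Alb-R3. Its mean log2 changes were therefore close to 0 (0.00 ± 0.57 and -0.24 ± 0.57), although single CCl4 libraries lay between -1.69 and 0.81 from their oil mean. Gstm2 and Gstm4 ran from -1.55 to 0.70 and from -1.05 to 0.69 in the same measure, Gstm7 from -1.21 to 0.15, and Gstm5 from 0.11 to 0.68.

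**Figure D5:**
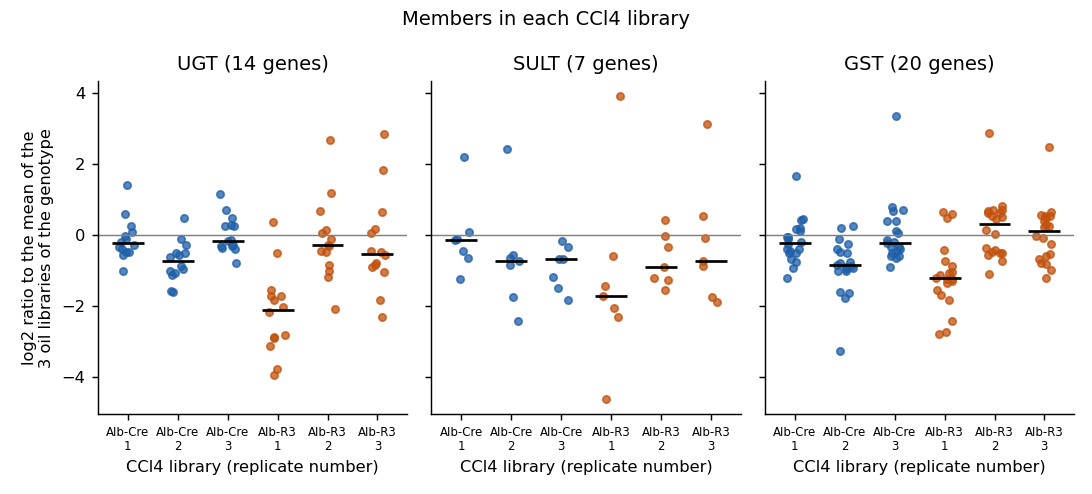
Log2 ratio to the mean of the 3 oil libraries of the same genotype (y axis) for each tested member (points) in each CCl4 library (x axis), by class; horizontal lines are medians. Alb-R3 replicate 1 has the lowest median in each class (-2.09 for UGT), followed by Alb-Cre replicate 2 for UGT and GST.

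The same 2 libraries were low for the UGT and GST genes, while in the SULT class only Alb-R3 CCl4 replicate 1 stood below the rest by median. Alb-R3 CCl4 replicate 1 had the lowest value of the 6 CCl4 libraries for 35 of the 42 members, among them all 14 UGT genes, against 28.6% of all tested genes and 53.5% of the 1155 most abundant. Alb-Cre CCl4 replicate 2 was the second lowest for 31 of the 42, and the share of all tested genes for that place is not given. Median log2 ratios to the oil mean in Alb-R3 CCl4 replicates 1, 2 and 3 were -2.09, -0.28 and -0.52 for UGT, -1.72, -0.89 and -0.71 for SULT, and -1.21, 0.31 and 0.11 for GST. In Alb-Cre they were -0.23, -0.74 and -0.15 for UGT, -0.13, -0.73 and -0.68 for SULT, and -0.21, -0.85 and -0.20 for GST. The SULT genes were thus the class whose median was below 0 by more than 0.6 in 5 of the 6 CCl4 libraries, while the GST median lay above 0 in 2. The mitochondrial share was 32.3% in Alb-R3 CCl4 replicate 1 and 6.25% in Alb-Cre CCl4 replicate 2, which is near the low end of the 12, and its part in these results was not tested.

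Alb-R3 was compared with Alb-Cre after each treatment. After oil, 0 of the 42 members passed with limma and 0 had an unadjusted p under 0.05, against 0.207% of all tested genes called; leaving out Alb-R3 CCl4 replicate 1 gave 0 and 0, against 0.504%. Class medians were -0.01 for UGT, -0.04 for SULT and -0.06 for GST. The largest positive values were 0.31 ± 0.47 for Ugt1a6a, 0.25 ± 0.36 for Sult5a1 and 0.32 ± 0.52 for Gstm2. The largest negative ones were -0.55 ± 0.60 for Ugt2b37, -0.09 ± 0.48 for Sult1d1 and -0.91 ± 0.81 for Gsta2. Gsta2 and Gsta4 were the 2 members without overlap, both lower in Alb-R3 (5.63% of all tested genes): Gsta2 read 1120, 1086 and 947.8 there against 1732, 2549 and 1750 for the controls, and Gsta4 2311, 2248 and 2202 against 3058, 2838 and 3365 (-0.45 ± 0.36).

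After CCl4, 0 members passed between the genotypes, against 0.173% of all tested genes called at an adjusted p under 0.05. The share of all tested genes at an unadjusted p under 0.05 is not given here. That unadjusted level was reached by 4 UGT genes. They were Ugt3a1 (-1.44 ± 0.36, limma adjusted p = 0.252), Ugt1a1 (-1.03 ± 0.40, 0.525), Ugt3a2 (-1.07 ± 0.47, 0.612) and Ugt2b38 (-2.14 ± 0.78, 0.501). All 4 were lower in Alb-R3 without overlap. Of all 42 members, 5 were lower without overlap (5.86% of all tested genes) and 1 was higher. Without Alb-R3 CCl4 replicate 1, 5 members were lower without overlap and 8 were higher, of which 5 were UGT and 3 GST genes. Shares of all tested genes are not given for the higher side or for that smaller set. Ugt2b38 read 147.5, 88.33 and 173.7 in Alb-Cre CCl4 and 8.631, 65.27 and 41.17 in Alb-R3 CCl4. Of its 31-base sequences 52.9% occur in other genes, with 44.1% in the far more abundant Ugt2b5, so its level is uncertain. The adjusted p for Ugt3a1 without Alb-R3 CCl4 replicate 1 was 0.289 (-0.91 ± 0.24), and again 0 members passed, against 0.188% of all tested genes called. In that fit 6 members had an unadjusted p under 0.05. The class medians moved from -0.44 to 0.04 for UGT, from -0.36 to 0.39 for SULT and from -0.10 to 0.22 for GST, so that none kept its sign. At the ends of the other classes were Sult2a8 (-1.34 ± 0.69), Sult1e1 (1.10 ± 0.90), Mgst1 (-0.55 ± 0.33) and Mgst2 (0.95 ± 0.69).

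The interaction, which asks whether CCl4 acted unequally in Alb-R3 and Alb-Cre, passed for 0 members and for 0% of all tested genes. An unadjusted p under 0.05, for which no share of all tested genes is given, was found for 2 members, Ugt3a1 and Ugt2b38. The interaction of Ugt3a1 was -1.59 ± 0.52 (limma adjusted p = 0.479), and the interaction of Ugt2b38 was -2.39 ± 1.10 (0.663). Class medians were -0.59 for UGT, -0.28 for SULT and -0.09 for GST (0.04 after quantile normalization). The more negative change was in Alb-R3 for 28 of 42 members and 51.8% of all tested genes. Without Alb-R3 CCl4 replicate 1 the medians were 0.00, 0.34 and 0.26, and 15 of 42 were more negative in Alb-R3 (51% of all tested genes). In that fit 0 members passed, against 0.0148% of all tested genes called. An unadjusted p under 0.05 was then found for 7 members. In that fit Ugt3a1 (-1.06 ± 0.32, 0.405), Mgst3 (0.84 ± 0.27, 0.435) and Ugt2b37 (1.74 ± 0.61, 0.51) had the smallest p-values. The other ends of the class ranges with all libraries were 0.94 ± 0.85 for Ugt2b37, 1.05 ± 1.28 for Sult1e1, -1.42 ± 0.98 for Sult2a8, 1.02 ± 0.98 for Mgst2 and -0.54 ± 0.59 for Gstm6.

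Genes that supply or follow the 3 reactions were counted from lists of the same pathways, here and in the next paragraph. Of 77 tested genes of these lists, 24 were called in Alb-R3, 9 higher and 15 lower. Among all tested genes 17.8% were called there, 10.9% higher and 6.92% lower. Without Alb-R3 CCl4 replicate 1 the calls in Alb-R3 were 21, 8 higher and 13 lower, against 15.7%, 9.63% and 6.05%. In Alb-Cre the share of all tested genes called was 4.45%, and 6.88% without that library. In Alb-Cre, 1 gene of these lists passed: Gnmt, the glycine N-methyltransferase, which fell by 1.75 ± 0.31 on the log2 scale (limma adjusted p = 0.00407). When Alb-R3 CCl4 replicate 1 was left out, 8 passed in Alb-Cre: Gnmt, Slc37a4 (-0.76, 0.0217), Arsa (-0.86, 0.0402), Ugt1a5 (-1.38, 0.0243), Sult2a7 (-2.30, 0.00901) and Ugt1a8 (0.0107) lower, and Gss (0.63, 0.0484) and Gstcd (0.95, 0.0373) higher. Ugt1a8 was listed at 0 in all 3 Alb-Cre CCl4 libraries and at 25.9, 17.2 and 1193 after oil. In Alb-R3, 6 genes were listed with sugar supply to the UGT reaction and sugar removal. Of these, 2 rose (Slc35b1, 0.97 ± 0.23, and the glucuronidase Gusb, 0.69 ± 0.20) and 1 fell (the glucose-6-phosphate transporter Slc37a4, -0.81 ± 0.20). Of 8 tested genes of sulfate donor supply and sulfate removal, 1 rose (Papss1, which makes PAPS, 1.03 ± 0.27) and 1 fell (the sulfatase Arsa, -1.10 ± 0.24). Papss1 was not called without Alb-R3 CCl4 replicate 1 (0.82, adjusted p = 0.0613), where Arsb was called instead (0.80, 0.0216). Of 15 genes of glutathione supply and mercapturate formation, 0 rose and 3 fell: Nat8, which acetylates cysteine conjugates (-2.28 ± 0.31), the peroxidase Gpx1 (-1.12 ± 0.34) and Acy3, which deacetylates mercapturates (-0.83 ± 0.19). Gpx1 was not called without Alb-R3 CCl4 replicate 1 (-0.84, 0.0916), where Oplah was called lower (-0.60, 0.0384), so that 3 again fell.

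Of 12 genes listed with other conjugating enzymes, 4 fell in Alb-R3 and 0 rose. The 4 were Gnmt (-1.98 ± 0.31), Inmt (-1.83 ± 0.56), the soluble epoxide hydrolase Ephx2 (-1.27 ± 0.27) and Nat2 (-0.55 ± 0.18). Inmt (-0.96, limma adjusted p = 0.0539) and Nat2 (-0.44, 0.123) were not called without Alb-R3 CCl4 replicate 1. Of 6 genes listed with export pumps for conjugates, Abcc4 (2.88 ± 0.52) and Abcb1a (1.88 ± 0.49) rose and Abcc6 fell (-0.89 ± 0.22). Of 12 regulators, 3 fell: Nr1i3 (CAR, -1.15 ± 0.27), Nr1i2 (PXR, -0.77 ± 0.24) and Stat5b (-0.98 ± 0.23), of which Nr1i2 was not called without that library (-0.62, 0.118). Of 30 further genes listed with the same families, 18 were tested, among them Gm4788, whose RefSeq synonym Cfhrc names no such enzyme. In Alb-R3, 4 rose (Gsta1, 3.69 ± 0.81; Hpgds, 3.50 ± 1.01; Gstp2, 1.52 ± 0.46; Gstcd, 1.01 ± 0.28) and 2 fell (Sult2a7, -3.23 ± 0.83; Ugt2a2, -2.82 ± 0.70). Hpgds was highest in Alb-R3 CCl4 replicate 1, at 136, while replicates 2 and 3 held 3.66 and 15.2, and it was not called without the first (2.17, 0.0837). In that fit Ugt1a8 was called lower (0.0299): it was listed at 0 in replicates 2 and 3, at 1052 in replicate 1 and at 11.2, 20.8 and 221.7 after oil.

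Markers of zones and of other cells moved with CCl4 as well. Among all tested genes, 0.988% were called lower in Alb-Cre (4.45% in either direction), and 6.92% lower and 10.9% higher in Alb-R3. Without Alb-R3 CCl4 replicate 1 these shares were 2.13% (6.88%), 6.05% and 9.63%. Of 8 markers of hepatocytes around the central vein, 3 fell in Alb-Cre and 5 in Alb-R3 (5 also without Alb-R3 CCl4 replicate 1), and their summed share of the library was 0.462% to 0.571% in Alb-Cre oil, 0.54% to 0.755% in Alb-R3 oil, 0.109% to 0.243% in Alb-Cre CCl4 and 0.0171% to 0.178% in Alb-R3 CCl4. Of 8 markers of hepatocytes near the portal vein, 1 fell in Alb-Cre and 3 in Alb-R3, with sums of 0.349% to 0.539%, 0.328% to 0.426%, 0.291% to 0.428% and 0.14% to 0.37% in the same order. Of 10 macrophage markers 0 rose in Alb-Cre and 10 in Alb-R3. Their sum in Alb-R3 was 0.0025% to 0.00339% after oil. After CCl4 it was 0.0391% in Alb-R3 replicate 1, and 0.00896% and 0.0123% in replicates 2 and 3. In Alb-Cre the sum was 0.00396% to 0.00776% after oil and 0.00524% to 0.00698% after CCl4. Of 9 stellate cell markers 4 rose in Alb-Cre and 8 in Alb-R3, with sums of 0.00347% to 0.0038% after oil and 0.00576% to 0.00864% after CCl4 in Alb-Cre, and 0.00141% to 0.00189% and 0.00343% to 0.0115% in Alb-R3. Of 8 endothelial markers 0 rose in Alb-Cre and 6 in Alb-R3. Their sums in Alb-Cre were 0.0081% to 0.011% after oil and 0.0103% to 0.016% after CCl4. In Alb-R3 the sums were 0.00474% to 0.00505% after oil and 0.0122% to 0.0172% after CCl4. Of 5 tested cholangiocyte markers 1 and 2 rose, with sums of at most 0.0175% in any library, and Krt19, Krt7, Epcam and Cftr were at 0 in at least 1 library. Of 5 lymphocyte markers 0 were called, and each was at 0 in at least 1 library. With Alb-R3 CCl4 replicate 1 left out, 9 macrophage, 9 stellate and 7 endothelial markers were called higher in Alb-R3, and 3 markers near the portal vein lower and 1 higher. In Alb-Cre, 3 portal and 4 central vein markers were then called lower and 1 macrophage marker (Cd68, 1.08, limma adjusted p = 0.0267) higher. In the macrophage, stellate and endothelial lists, 0 markers were called between the genotypes after either treatment, or in the interaction, with all 12 libraries. Leaving out Alb-R3 CCl4 replicate 1 gave 2 stellate and 2 endothelial markers lower in Alb-R3 after oil (0.504% of all tested genes called). The part of the marker shifts in the member results was not tested.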

How the data were processed

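Both units come from 1 deposited table. Its normalized counts are a signal per gene that the authors had scaled between libraries, per the file headers, by a method not given in the sources used here; its FPKM values are a second set of columns, also deposited by the authors. Per the submitters' processing notes, the tools were kallisto 0.44.0 and edgeR and the build GRCm38.p6. All columns were matched to a sample (0 with none). Here limma 3.58.1 (R 4.3.3) was fitted with an intensity trend to log2(normalized count + 1), with 4 group terms and 8 residual degrees of freedom, for the 20244 genes at 1 or more in at least 3 of 12 libraries. Benjamini-Hochberg adjustment ran over all 20244 genes in each of 5 comparisons, with a threshold of 0.05. This scale, log2(value + 1), understates the changes of low genes. The fit was tested on simulated data.

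The members and gene lists were chosen with earlier results of these data known. Named were members past the threshold in any comparison, the 3 most abundant of each class by FPKM, the ends of each class in each comparison, the member that failed the filter, Ephx1, and at most 4 genes per direction of each further list; members outside this rule were named to account for all of them. Shares of 31-base sequences were computed from the GENCODE M21 transcripts, and start windows come from RefSeq. Alternatives were another pseudocount, filter, scaling, unit and variance model, library weights, a replicate block, and leaving out each library.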

Additional observations from a re-analysis of the deposited data

How the results depend on the processing

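Of 4573 values of single members under the alternatives, 4428 kept their side of the threshold, 115 lost a call and 30 gained one. Calls in the main fit were only 3 in Alb-Cre and 15 in Alb-R3, both for CCl4 against oil. Most of the 4573 therefore had no call to lose, and the 115 losses all fell on these calls. Among the 4428, 266 had the other sign, all of them called in neither setting; no called value changed sign. Members called for CCl4 in Alb-Cre (3) became 0 on FPKM and 9 with library weights, and 0 to 5 when 1 library was left out. Those in Alb-R3 (15) became 8 without the variance trend, 5 on FPKM, 6 with only the 6 Alb-R3 libraries, 10 with quantile normalization, 10 without the filter, and 6 to 19 when 1 library was left out. Shares of all tested genes called are not given for these runs, apart from the fit without Alb-R3 CCl4 replicate 1. The GST median for CCl4 in Alb-R3 was 0.07 with library weights and -0.72 to 0.19 leaving out 1 library. The SULT median between genotypes after CCl4 was 0.12 and -0.50 to 0.39, and that of the interaction 0.08 and -0.59 to 0.34, in the same settings. The cause was not tested. Genotype and interaction counts were 0 in every alternative run. At 28020000 to 39630000 reads, depth most limits Sult1e1, Sult3a1 and Mgst2.

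With the sample number as a replicate block, 3 members passed in Alb-Cre and 10 in Alb-R3 (0 higher, 10 lower). Over 12 same-numbered pairs the correlation of deviations was -0.18 to 0.20, over 0.1 in 2 pairs, and 3 correlated best with their own number, so the numbers were not taken to pair samples.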
